A study of Mus musculus with 3 samples.

Results

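The cells described here are 143 cells of newborn mouse mandibular condylar cartilage that carried RNA of Pthlh, the gene for parathyroid hormone-related protein, and little RNA of the cartilage collagen gene Col9a1. They come from a single-cell RNA study of the condyle, the jaw side of the temporomandibular joint (TMJ), in wild-type (WT) C57BL6 mice at embryonic day 16.5 (E16.5), birth (P0) and 13 weeks (13w), which by its title concerns skeletal progenitors and zones of the cartilage. No agent was given and no allele was altered in any group. Condyles of 7 to 20 mice per age were pooled, digested with collagenase A and dispase 2, sorted as living cells by Calcein and DAPI staining, and loaded as 1 droplet library per age. Every value below therefore describes 1 pooled library, with no replicate: stage and library cannot be told apart, no test between groups was possible, and intervals cover counting error only.

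A barcode of the P0 library was kept with at least 500 detected genes and at most 10% of its unique molecular identifiers (UMIs, 1 per captured RNA molecule) from mitochondrial genes. Of 3999 kept P0 cells, the 143 chosen cells had at least 1 Pthlh UMI, fewer than 3 Col9a1 UMIs per 10000 UMIs of the cell, and no UMI of Mki67, Top2a, Ptprc or Pecam1. The last 4 genes mark dividing cells, leukocytes and endothelium. They made up 3.58% of kept P0 cells (95% exact binomial interval 3.02 to 4.2) and are set beside 16589 kept cells in the whole series. Because these 6 genes chose the cells, their levels are a description and not a result. They are called the Pthlh-positive cells below. Dissociated cells carry no position, so whether they lay at the joint surface cannot be read from these data.

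Parathyroid hormone-related protein is secreted and acts through the receptor Pth1r on neighbouring chondrocytes, where it holds back their enlargement and mineralisation. In the long-bone growth plate, prehypertrophic chondrocytes release Indian hedgehog (Ihh), which in turn maintains Pthlh expression near the joint, so that signal sender and receiver are different cells. The condyle is a secondary cartilage that grows beneath a fibrous covering and a layer of polymorphic progenitors, and Pthlh RNA is known from these outer layers.

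Pthlh was sparse. A Pthlh UMI was found in 228 kept P0 cells (5.70%), and 209 of these were under the Col9a1 limit. Among those 209 cells, 63 held a UMI of Mki67 or Top2a and were left out as dividing, and 3 more held only Pecam1. The chosen cells together held 378 Pthlh UMIs: 61 cells had 1, 36 had 2 and 46 had 3 or more, with 18 in the highest cell. Scaled to each cell's depth, Pthlh ran from 0.382 UMIs per 10000 in the lowest cell through a median of 2.02 to 14.5 in the highest. Near the Col9a1 limit, the closest chosen cells held 2.46, 2.60 and 2.99 Col9a1 UMIs per 10000 and the closest Pthlh-positive cells beyond it 3.04, 3.24 and 3.31. No Col9a1 UMI was seen in 104 of the 143 cells. A further 19 Pthlh-positive cells were beyond the limit.

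Free RNA in droplets can place a UMI in a cell that does not express the gene, so detection of Pthlh was compared between groups of cells. Pthlh was found in 6 of 208 kept P0 cells with a Pecam1 UMI (2.88%, median depth 26558 UMIs) and in 7 of 566 cells with at least 10 Col10a1 UMIs per 10000 (1.24%, median 35816), which are hypertrophic by that gene. Those 6 cells held 29 Pthlh UMIs in all and those 7 cells 23. These groups are therefore not known to lack Pthlh expression, and the part of free RNA was not tested. Pthlh was found in 2 of 39 cells with at least 3 endothelial markers (5.13%, interval 0.627 to 17.3, median 10996). It was found in 10.0% of the 1428 Col9a1-low cells with none of the 4 excluded genes (interval 8.51 to 11.7, median 10562), which lies inside the wide interval of those 39 cells. With every cell thinned to 5000 UMIs the shares were 0.985% for Pecam1, 0.382% for Col10a1, 0 of 35 cells with 3 endothelial markers (interval up to 10.0%) and 7.06% for the Col9a1-low cells. The 61 cells with a lone UMI are nevertheless the least certain.

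The cells were set beside 2 reference groups of the same library, which share cells. The first is all 3856 other kept P0 cells, with a median of 18822 UMIs. It holds all 1746 kept cells at or over the Col9a1 limit, which had a median of 36410 UMIs. Being deeper, these weigh more in summed UMIs. The second is the 1285 Col9a1-low cells with none of the 4 excluded genes and no Pthlh UMI, called the Pthlh-negative cells, which are part of the first group. The Pthlh-positive cells had a median of 9134 UMIs and 2762 genes, and the Pthlh-negative cells 10710 UMIs and 2819 genes. Median mitochondrial shares were alike at 3.58%, 3.62% and 3.45% in Pthlh-positive, Pthlh-negative and all other cells, whereas ribosomal protein genes took 25.1%, 30.7% and 25% of a median cell's UMIs. UMIs were summed over each group and divided by the group's total (CPM, counts per 1000000). Genes that reached 10 CPM in the group with more were taken as measured, and those at or beyond a 2-fold ratio are called higher or lower.

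The markers proposed for these cells were higher in them than in both reference groups, and 1 of them was rare. Igfbp5, which codes for a secreted binding protein of insulin-like growth factors, was found in 134 of 143 cells and reached 1094 CPM (95% Poisson interval 1040 to 1150), against 283 CPM in Pthlh-negative cells and 95.3 CPM in all other kept cells. Per cell it ran from 0 through a median of 7.31 to 53.2 UMIs per 10000. Gas1, a surface co-receptor for hedgehog proteins, was found in 66 cells and stood at 150 CPM against 32.7 and 13.1. Procr, the endothelial protein C receptor and a progenitor marker in several tissues, was found in 18 cells and stood at 50.9 CPM against 3.03 and 1.65. All 3 genes were found together in 14 of the Pthlh-positive cells and in 5 of the 1285 Pthlh-negative cells. None was found in 6 and 416 cells. Igfbp5 thus accompanied nearly every Pthlh-positive cell, Gas1 fewer than 50%, and Procr 12.6%. In Pthlh-negative cells these 3 genes had a UMI in 58.5%, 24.7% and 1.56%, so Igfbp5 was common there too.

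Lists of markers of other cell types were summed in the same way. The 7 superficial fibrocartilage genes together gave 764 CPM in Pthlh-positive cells, 190 in Pthlh-negative cells and 120 in all other cells, all 7 with a count. Prg4, the joint lubricant gene lubricin, was found in 16 of the 143 cells (32.5 CPM against 15.6 and 4.84), and Cilp, an adult cartilage surface gene, had 2 UMIs in all. Tendon markers gave 521 CPM against 73.2 and 40.1, of which Thbs4 made up 446 CPM in Pthlh-positive and 11.9 in Pthlh-negative cells, and 4 Pthlh-positive cells held 3 or more of the 5. Fibroblast markers gave 4867, 4330 and 2486 CPM. Chondrocyte markers without Col9a1, which chose the cells, gave 1076 CPM against 1498 and 26788. At least 3 of the 10, Col9a1 counted, were found in 130 Pthlh-positive cells (90.9%). The shares were 95.5% of Pthlh-negative and 97.6% of all other cells. Endothelial markers summed to 7.77 CPM with Cdh5, Emcn and Tie1 at 0, epithelial markers to 0.706 CPM with Krt5, Krt14, Krt8 and Cdh1 at 0, myeloid markers to 4.24 CPM with C1qa, C1qb and Tyrobp at 0, and neutrophil and mast cell markers to 0. Mural markers, of pericytes and smooth muscle, gave 232 CPM with Rgs5 at 0, against 702 in Pthlh-negative cells, 76 of which held 3 or more mural markers.

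**Figure D1:**
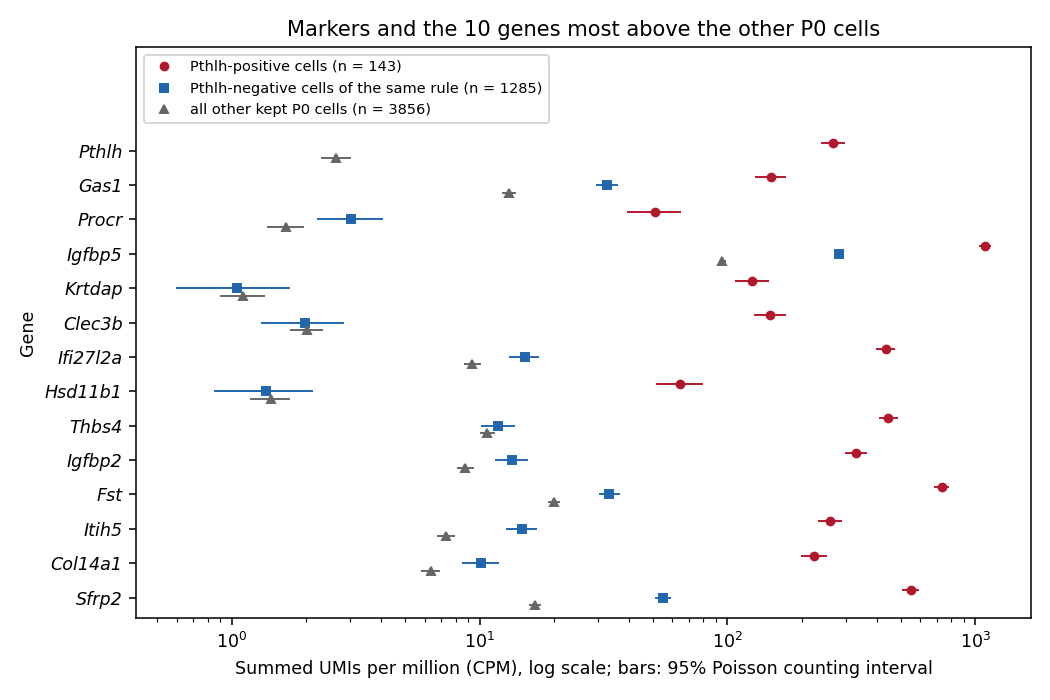
Summed level (CPM, log axis) of the 4 markers and of the 10 genes with the largest ratio over all other kept P0 cells, in Pthlh-positive cells (circles), Pthlh-negative cells (squares) and all other kept cells (triangles); bars are 95% Poisson counting intervals, and Pthlh is 0 by definition in the Pthlh-negative cells. Circles lie to the right of both references for every gene, and squares and triangles lie close together for Krtdap, Clec3b, Hsd11b1 and Thbs4.

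Against all other kept P0 cells, Krtdap, Clec3b and Ifi27l2a had the largest excess. Of 8273 measured genes, 938 were higher in the Pthlh-positive cells (11.3%) and 1031 lower (12.5%), with a median log2 ratio over all of them of 0.04. The split depends on scaling: it was 705 higher and 1281 lower with TMM factors, and 745 and 1257 with median-of-ratios factors. Krtdap, known as a small secreted protein of stratified epithelium, stood at 126 CPM against 1.11 (113-fold). Its 178 UMIs lay in 22 of the 143 cells, and epithelial keratin and cadherin genes were at 0 as given above. Clec3b, which codes for the plasminogen-binding lectin tetranectin, stood at 148 against 2.01 CPM (73.8-fold), and Hsd11b1, the enzyme that regenerates active glucocorticoid, at 64.3 against 1.44 (44.7-fold). Each of those 2 genes was found in 34 cells.

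The remaining genes of this set were more widely detected. Thbs4, thrombospondin 4 of tendon and ligament matrix, stood at 446 against 10.7 CPM and was found in 58.0% of Pthlh-positive cells and 5.13% of the others. Fst, follistatin, which binds activins, stood at 731 against 20.0 CPM and was found in 78.3% and 8.90%. Sfrp2, a secreted Wnt modulator, stood at 549 against 16.7 CPM, Igfbp2 at 331 against 8.76, Itih5 at 259 against 7.32 and Col14a1, a collagen bound to fibril surfaces, at 223 against 6.35. Ifi27l2a, an interferon-inducible gene, stood at 434 against 9.35 CPM and was found in 37.1% and 4.67%.

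Cartilage genes were among those furthest below the other cells, and the Col9a1 limit bears on them. Col2a1, the main cartilage collagen, stood at 246 CPM against 13040 (53.0-fold lower). It still had a UMI in 83.2% of Pthlh-positive cells, a level at which free RNA cannot be set apart from expression. Matn3 (matrilin 3) stood at 5.65 against 242 CPM, Ibsp (bone sialoprotein) at 42.4 against 1676, and Car8 had 0 UMIs against 90.4 CPM (at least 42.6-fold lower). The other 6 rested on 1 to 3 UMIs: Eps8l2 (log2 ratio -6.78, interval -12.08 to -4.30), the antisense transcript Dhx58os (-6.52, -11.82 to -4.04), Cenpf (-5.70, -8.75 to -3.85), Smim5 (-5.60, -7.88 to -4.06), Ncmap (-5.28, -7.56 to -3.73) and Scin, an actin-severing protein gene (-5.48, -7.76 to -3.93). Cenpf belongs to mitosis, and dividing cells had been left out of the Pthlh-positive cells by Mki67 and Top2a.

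The Pthlh-negative cells are the closer reference, since both groups were held to the same Col9a1 limit and excluded genes. Of 8028 measured genes, 575 were higher in the Pthlh-positive cells (7.16%) and 368 lower (4.58%), with a median log2 ratio of 0.07. Without mitochondrial and ribosomal protein genes in the totals the split was 593 and 627. Krtdap (119-fold), Clec3b (75.1-fold), Hsd11b1 (46.5-fold), Thbs4 (37.4-fold), Ifi27l2a (28.6-fold), Igfbp2 (24.5-fold) and Col14a1 (22.0-fold) again led. They were joined by Cd55, which codes for a surface inhibitor of complement (145 against 4.68 CPM, 31.0-fold), Palmd, which codes for palmdelphin (125 against 5.27 CPM, 23.7-fold), and the small heat shock protein gene Hspb8 (126 against 5.73 CPM, 22.1-fold). In cells thinned to 5000 UMIs, Thbs4 was found in 51.9% of Pthlh-positive and 3.01% of Pthlh-negative cells, Palmd in 36.1% and 2.09%, and Clec3b in 20.3% and 0.835%. The gaps in these genes were smaller within the cluster that held most Pthlh-positive cells, as given below.

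Contractile and pericyte genes were among those furthest below the Pthlh-negative cells. Acta2, smooth muscle actin, stood at 60.8 against 414 CPM (6.81-fold lower), Mylk, myosin light chain kinase, at 11.3 against 88.1, Cox4i2 at 11.3 against 74.3, and Rgs5 had 0 UMIs against 106 CPM (at least 49.9-fold lower). Acta2 and Rgs5 are themselves on the mural marker list, so its sums of 232 against 702 CPM given above are no separate result. The part of mural cells in the difference was not tested. Acta2 was found in 50.6% of Pthlh-negative cells, while 5.91% of them held 3 or more mural markers. The others were Pdzrn4 (7.77 against 145 CPM, 18.7-fold lower), the membrane protein gene Ifitm3 (39.6 against 304), Aldh1a3, an enzyme of retinoic acid synthesis (17.7 against 131), Rnf180 (8.48 against 59.0), Crispld2 (31.8 against 197) and Ibsp (42.4 against 239).

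How the 10 genes highest against Pthlh-negative cells were spread over cells is a description, since they were chosen on these same groups. At least 5 of these 10 genes were found in 58 Pthlh-positive cells (40.6%) and in 13 Pthlh-negative cells (1.01%). None of the 10 was found in 29 Pthlh-positive cells (20.3%) and in 1006 Pthlh-negative cells (78.3%). All 18 cells with Procr also held Thbs4, and 14 of them held Gas1. All 22 cells with Krtdap held Thbs4, as did 33 of the 34 with Clec3b. Cells with Procr or Krtdap thus lay within the wider Thbs4-positive set of 83 cells.

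The levels are given next by number of Pthlh UMIs, as a description, since Pthlh chose the cells and the genes were chosen for their excess in them. From Pthlh-negative cells through cells with 1, 2 and 3 or more Pthlh UMIs, Thbs4 stood at 11.9, 144, 453 and 753 CPM, and Krtdap at 1.05, 9.20, 134 and 240. Procr stood at 3.03, 7.36, 32.0 and 108 CPM over the same 4 groups. Acta2 went the other way, at 414, 134, 17.4 and 13.2 CPM. Igfbp5 stood at 1174, 834 and 1181 CPM in cells with 1, 2 and 3 or more. Median depth also rose among the Pthlh-positive cells, from 8534 UMIs with 1 Pthlh UMI to 9472 with 2 and 10752 with 3 or more, and its part was not tested. CPM is relative to the summed depth of each group.

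**Figure D2:**
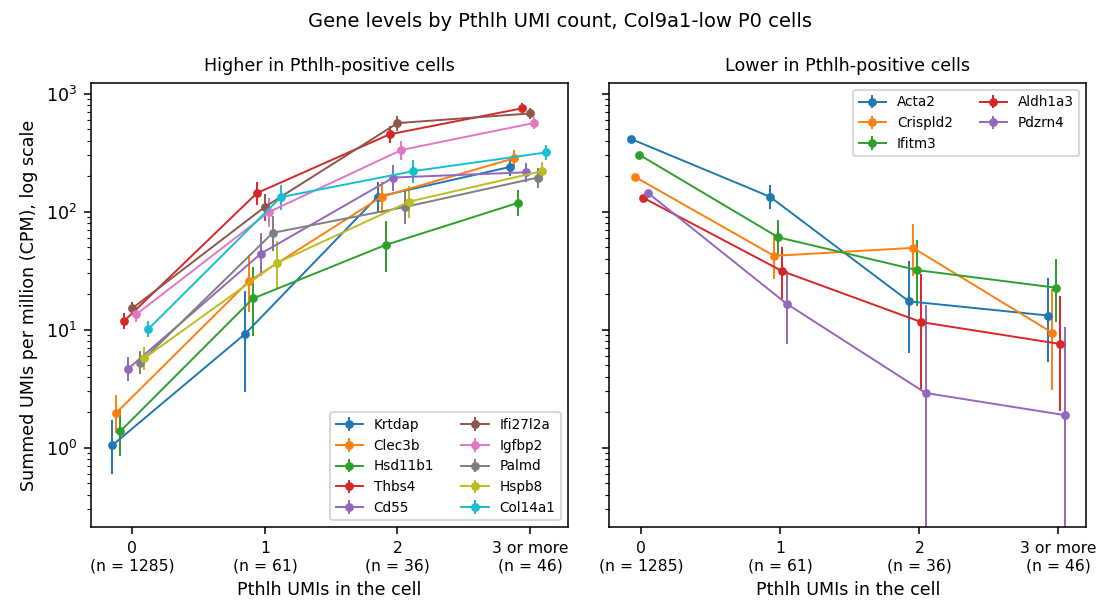
Summed level (CPM, log axis) in Col9a1-low P0 cells with 0, 1, 2 and 3 or more Pthlh UMIs, for the 10 genes highest (left) and 5 genes low (right) against Pthlh-negative cells; bars are 95% Poisson counting intervals that run off the axis for Pdzrn4. Thbs4 goes from 11.9 to 753 CPM and Acta2 from 414 to 13.2 CPM.

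All kept P0 cells were clustered to see whether the Pthlh-positive cells fell together, at Leiden resolution 1.0 into 17 clusters. Cluster 9, of 256 cells, held 108 of the 143 (75.5%) and all 46 with 3 or more Pthlh UMIs. Its leading genes were Clec3b, Krtdap, Sfrp2, Hsd11b1, Thbs4, Col14a1, Igfbp2, Mfap5, Fst and Abi3bp. Sfrp2 and Col14a1 are on the fibroblast marker list, Thbs4 on the tendon list and Abi3bp on the superficial fibrocartilage list. No class had 3 markers among them, so the cluster is given no cell type name. Pthlh-positive cells were 42.2% of it, and 70 more of its cells were Pthlh-negative by the same limits. Cluster 4, of 399 cells led by Gpha2, Fgf18 and Eln, held 30 Pthlh-positive cells, 24 of them with a lone Pthlh UMI. The other 5 lay in clusters 1, 6 and 8, all with a lone UMI. At resolution 0.5, 108 cells again lay in a cluster of 258 cells and 34 in a larger one.

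The 35 Pthlh-positive cells outside cluster 9 looked different from the 108 inside, which follows in part from clustering on the same genes. Outside, Procr, Prg4, Krtdap, Clec3b, Ifi27l2a, Hsd11b1, Palmd and Hspb8 had no UMI, and Sfrp2 stood at 16.3 CPM against 696 inside. Igfbp5 stood at 898 CPM outside and 1148 inside, and Acta2 at 222 and 16.2. Of the 575 genes higher than in Pthlh-negative cells, 556 were so in the inside cells alone and 220 (38.3%) in the outside cells alone, with median log2 ratios of 1.77 over the 575 genes and 0.71 over the 574 with a ratio outside. Median depth was 9588 UMIs inside and 7262 outside. Read the other way, the 70 Pthlh-negative cells of cluster 9 held Gas1 at 177 CPM, close to 178 in its Pthlh-positive cells, Igfbp5 at 1123 against 1148, Fbn2 at 1400 against 1351 and Sfrp2 at 1456 against 696. Procr stood at 5.84 against 64.9 CPM and Krtdap at 29.2, from 1 cell, against 160. Of the other genes highest against all Pthlh-negative cells, Palmd stood at 128 against 160 CPM and Col14a1 at 234 against 275. Igfbp2 stood at 239 against 419, Thbs4 at 284 against 564, Cd55 at 91.5 against 184 and Hspb8 at 54.5 against 161. Clec3b stood at 52.6 against 189, Ifi27l2a at 113 against 553 and Hsd11b1 at 15.6 against 82.0. The other 1215 Pthlh-negative cells lay outside cluster 9. The Pthlh-negative cells of cluster 9 had a median of 7566 UMIs, and the part of depth in their lack of a Pthlh UMI was not tested.

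**Figure D3:**
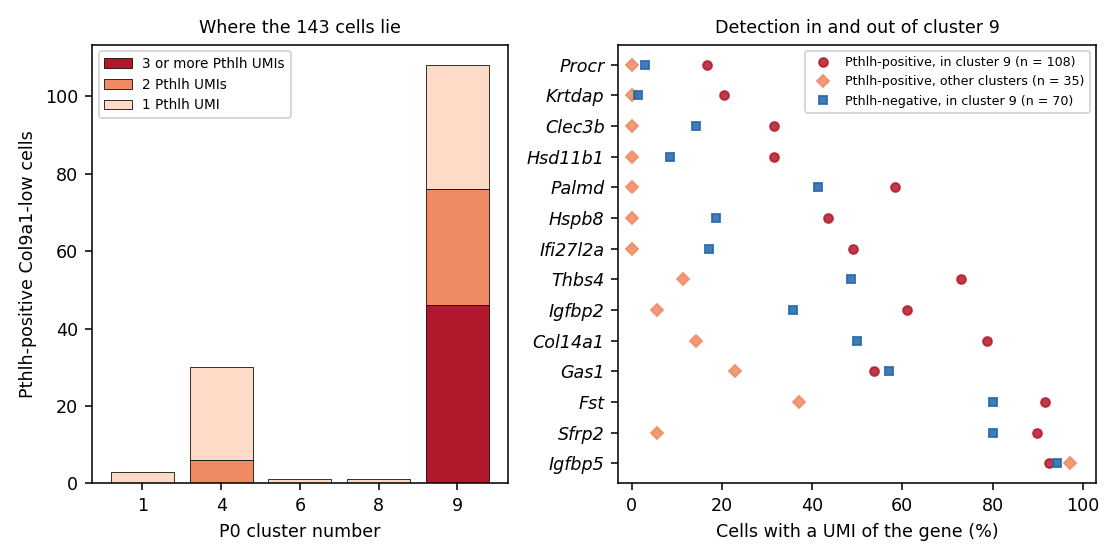
Left, number of Pthlh-positive cells in each P0 cluster that held any, split by Pthlh UMI count; right, share of cells with a UMI of each gene in Pthlh-positive cells inside and outside cluster 9 and in its Pthlh-negative cells. Cluster 9 held 108 of 143 cells, and in the 35 outside it 7 of the genes drawn were at 0 while Igfbp5 was found in 97.1%.

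Genes were then grouped into 28 lists. Over all measured genes, 11.3% were higher and 12.5% lower against all other kept cells, and 7.16% and 4.58% against Pthlh-negative cells. A list count near those shares is no result about the list. Of the 12 genes measured on the Pthlh receptor and hedgehog list, 7 were higher and 2 lower than in all other kept cells (list median log2 ratio 1.04), and of 11 measured against Pthlh-negative cells 4 were higher and 1 lower (median 0.44). Pth1r, the receptor for the Pthlh protein, was lower: 69.2 CPM in Pthlh-positive cells, 187 in Pthlh-negative cells and 760 in all others. Ihh had 10 UMIs in the Pthlh-positive cells (7.06 CPM) against 119 CPM in all others. The hedgehog-binding surface proteins were higher. Hhip, which sequesters hedgehog ligands, stood at 232 CPM against 26.0 in Pthlh-negative cells and 14.0 in all others. The co-receptor genes Gas1, Cdon and Boc were 4.57-fold, 8.77-fold and 2.18-fold above Pthlh-negative cells. The pathway target Gli1 stood at 69.9 CPM against 47.6 in Pthlh-negative cells and 20.9 in all others, and Ptch1, the hedgehog receptor and also a target, at 217 against 170 CPM in Pthlh-negative cells, both under the limit of 2 against Pthlh-negative cells.

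Joint surface genes were mostly higher, 12 of 15 measured against all others (median log2 ratio 2.34) and 11 of 15 against Pthlh-negative cells (2.13), with Sparcl1 lower in both. Abi3bp, an extracellular matrix protein, stood at 283 CPM against 21.1 in Pthlh-negative cells and 9.31 in all others, and Tppp3, known from tendon sheath and synovial cells, at 487 against 81.1 and 53.7. Has1, a hyaluronan synthase, stood at 55.1 against 6.98 and 6.56 CPM. Thbs4 and Tppp3 are also the 2 tendon list genes above Pthlh-negative cells. Scx, the tendon transcription factor, stood at 60.8 CPM against 50.9 in those cells.

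Elastic fibre genes, which code for elastin and the microfibrils around it, were higher in 10 of 12 measured against all others (median 2.84) and in 9 of 12 against Pthlh-negative cells (1.57). Fbn1 (fibrillin 1) stood at 350 CPM against 22.7 in Pthlh-negative cells and 12.2 in all others. Mfap5, a microfibril protein, stood at 45.2 against 2.24 and 1.68, Eln (elastin) at 485 against 73.6 and 27.2, and Fbn2 (fibrillin 2) at 1242 against 231 and 77.8. Efemp2 and Emilin1 were lower than in all others, and neither was so against Pthlh-negative cells. Fibrous matrix genes did not move together, with 6 higher and 2 lower of 26 against all others and 4 and 2 against Pthlh-negative cells. Col14a1, Col8a1 (254 against 69.9 CPM in Pthlh-negative cells) and Vcan (versican, 558 against 180) were higher in both comparisons, and Thbs1 (66.4 against 242 CPM) lower against all others. Small leucine-rich proteoglycans, which bind collagen fibrils, split into 7 higher and 4 lower of 12 against all others. Ogn (605 against 88.1 CPM in Pthlh-negative cells), Podn (22.6 against 3.75) and Aspn (1730 against 712) were higher in both comparisons, and the cartilage member Chad stood at 9.89 against 78.4 CPM in all others.

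Insulin-like growth factor genes were higher in 7 of 10 measured against all others (median 2.76) and in 5 of 10 against Pthlh-negative cells (1.33), with Igf1r lower against all others. Igf1, the growth factor itself, stood at 494 CPM in Pthlh-positive cells against 78.6 and 24.1. Igfbp4 stood at 1154 against 207 and 80.9, Igfbp6 at 227 against 26.9 and 15.7, and Igfbp2 at 331 against 13.5 and 8.76. Imprinted growth genes were higher in 5 of 12 against all others and 4 of 12 against Pthlh-negative cells, among them Dlk1 (903 against 170 CPM in Pthlh-negative cells), Meg3 (3042 against 809) and Ndn (153 against 68.8). Cdkn1c, a cell cycle inhibitor, stood at 1721 CPM against 4083 in all others and 1102 in Pthlh-negative cells.

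**Figure D4:**
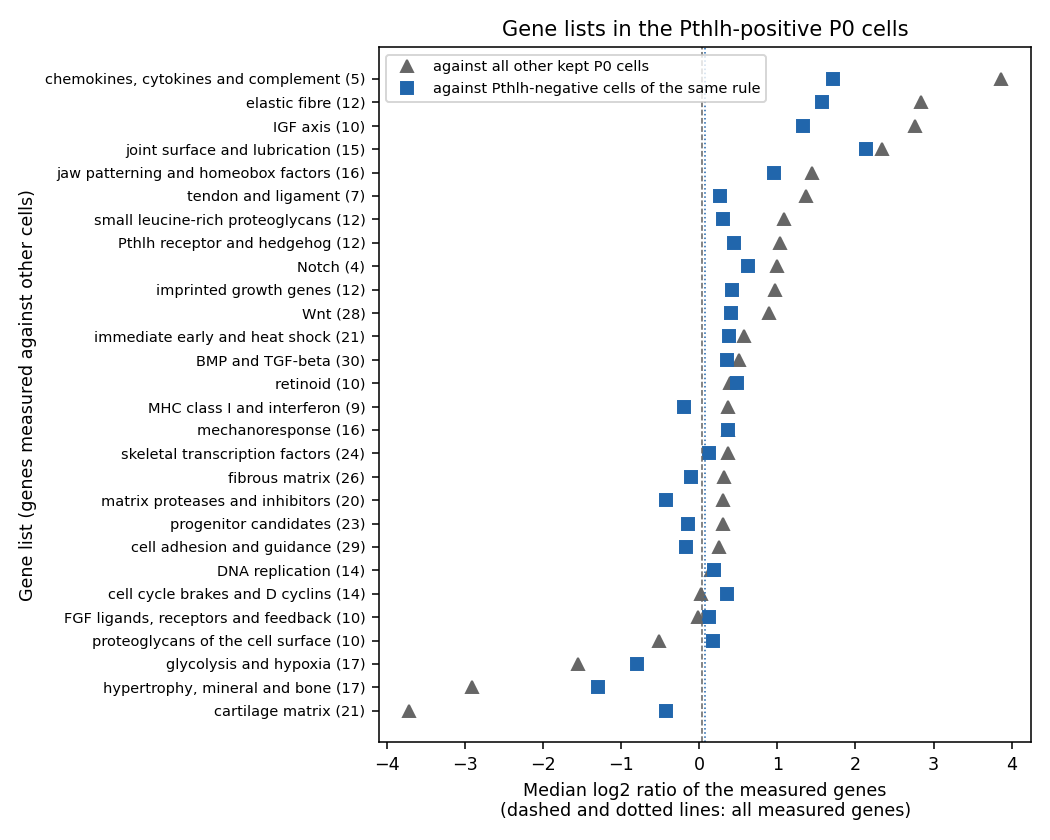
Median log2 ratio of the measured genes of each of 28 lists in Pthlh-positive cells against all other kept P0 cells (triangles) and against Pthlh-negative cells (squares), with the number of genes measured against all others in brackets; the dashed and dotted lines are the medians of all measured genes, 0.04 and 0.07. Chemokines, cytokines and complement (3.87, from 5 genes), elastic fibre (2.84), IGF axis (2.76) and joint surface (2.34) lie to the right in both. Cartilage matrix (-3.72) moves close to the lines against Pthlh-negative cells (-0.42).

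On the BMP and TGF-beta list, 12 of 30 measured genes were above all others and 6 below, and 11 of 30 were above Pthlh-negative cells and 2 below. Fst and the ligand gene Bmp4 (124 against 20.6 CPM in Pthlh-negative cells) were higher, as was Ltbp2, a microfibril-associated relative of the latent TGF-beta binding proteins (51.6 against 4.68). Chrdl1, a BMP antagonist, was lower (4.24 against 10.4). Wnt genes gave 13 higher and 5 lower of 28 against all others and 8 and 4 of 27 against Pthlh-negative cells. Lgr5, an R-spondin receptor, stood at 41.0 CPM against 6.52 in Pthlh-negative cells, and Wnt9a, a ligand known from forming joints, at 41.0 against 9.22. Frzb, a Wnt antagonist of articular cartilage, had 6 UMIs (4.24 CPM) against 115 CPM in all others. Against Pthlh-negative cells Frzb was not called lower. The FGF list of 10 measured genes had 3 higher (Fgf18, Dusp6 and Spry1) and 2 lower (Fgfr3 and Fgfrl1) against all others (median -0.01). Fgf18, a growth factor for chondrocytes, stood at 60.8 CPM against 14.9 in Pthlh-negative cells, and Fgfr3, a receptor of chondrocytes, at 6.36 against 21.5. In the Notch list, the ligand Jag1 (33.2 against 12.8 CPM) and the target Hes1 (164 against 80.2) were above Pthlh-negative cells and Notch3 was 2.49-fold below.

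Transcription factors that pattern the jaw were higher in 11 of 16 measured against all others (median 1.44), with Foxc1 lower, and in 8 of 16 against Pthlh-negative cells (0.96) with none lower. Osr1 stood at 39.6 CPM against 2.77 in Pthlh-negative cells and 1.60 in all others, Foxp2 at 59.3 against 10.9 and 3.59, Msx1 at 12.7 against 1.52 and 1.24, and Dlx6 at 51.6 against 12.6 and 8.68. Among other skeletal transcription factors, Ebf1 (174 against 34.1 CPM in Pthlh-negative cells), Ebf2 (11.3 against 2.37) and Ebf3 (14.1 against 2.57) were higher. Mef2c, a driver of hypertrophy (22.6 against 92.2 CPM), was lower, and so were Runx2, Runx3 and Sp7, regulators of bone formation, at 2.44-fold, 3.96-fold and 3.20-fold below Pthlh-negative cells.

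Genes of cartilage and bone matrix separated the references. Cartilage matrix genes were lower in 20 of 21 measured against all others (median -3.72), but only in 3 of 16 against Pthlh-negative cells (Fmod, Col27a1 and Matn4; median -0.42), where Cnmd and Scrg1 were higher. Col2a1, Snorc and Col9a3 stood at 246, 70.6 and 58.6 CPM in Pthlh-positive cells and at 312, 75.2 and 75.2 in Pthlh-negative cells. The Col9a1 limit acted on both groups alike. Hypertrophy and bone genes were lower in 13 of 17 against all others (median -2.91) and in 8 of 15 against Pthlh-negative cells (-1.29), with Enpp1 and Slc20a1 higher. Panx3, a channel of prehypertrophic cells and osteoblasts, stood at 17.7 CPM against 88.2 in Pthlh-negative cells. Spp1 (osteopontin) and Col10a1, the collagen of hypertrophic cartilage, stood at 62.9 against 86.4 and 77.0 against 62.1 CPM, inside the limit of 2.

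Glycolysis and hypoxia genes were lower, 13 of 17 against all others (median -1.55) and 7 of 17 against Pthlh-negative cells (-0.80), with none higher in either. Pgk1, phosphoglycerate kinase, stood at 135 CPM against 383 in Pthlh-negative cells and 986 in all others, Bnip3 at 23.3 against 59.1 and 131, and Pfkl at 14.1 against 30.3 and 61.7. DNA replication genes gave no difference past the limit against Pthlh-negative cells (12 measured), after dividing cells had been left out of both groups. Of the 14 D cyclin and cell cycle brake genes measured against all others, Ccnd2 (346 against 92.8 CPM) and Ccnd3 were higher. Cdkn1c, Cdkn2c and Cdkn2d were lower, and the list median log2 ratio was 0.02. Over all measured genes 11.3% were higher and 12.5% lower, and all other cells include dividing cells. Against Pthlh-negative cells 1 of 13 was higher and none lower (median 0.35).

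The list of progenitor candidates did not move as 1 set: 9 were higher and 9 lower of 23 against all others, and 5 and 5 of 22 against Pthlh-negative cells (median -0.14). Procr (16.8-fold), the niche chemokine Cxcl12 (7.92-fold), Lepr (4.12-fold), Cd34 (4.09-fold) and Eng (2.08-fold) were above Pthlh-negative cells, and Acta2 (6.81-fold), Fgfr3 (3.38-fold), Nt5e (3.18-fold), Wif1 (3.05-fold) and Thy1 (2.89-fold) below. Foxa2 had 2 UMIs. Chemokine and complement genes gave 3 higher of 6 against Pthlh-negative cells (median 1.71), Cd55, Cxcl14 (239 against 17.7 CPM) and Cxcl12. The same 3 were higher of 5 measured against all others (median 3.87). Retinoid genes split, with the binding protein Crabp2 (43.8 against 6.13 CPM) and the degrading enzyme Cyp26b1 (79.8 against 20.9) higher, and the synthesising enzyme Aldh1a3 lower.

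Several lists had genes on both sides. Among guidance and adhesion genes, Ntn1 (netrin 1, 21.2 against 1.25 CPM), Itgbl1 (43.1 against 6.19), Sema3c (220 against 37.9) and Itga5 (2.92-fold) were above Pthlh-negative cells and 6 of 27 below. Of the proteases and inhibitors, Adamts15 (21.2 against 0.527 CPM, found in 14.0% of Pthlh-positive cells), Prss23 (36.7 against 5.20) and Timp3 (3.07-fold) were higher and 7 of 22 lower, among them Prss35 (4.94 against 41.6). Sdc4 and Gpc1, heparan sulfate proteoglycans of the cell surface, were lower (150 against 394 and 37.4 against 82.7 CPM), and the hyaluronan receptor gene Cd44 higher (366 against 160). In the mechanoresponse list, Ccn3 (159 against 8.56 CPM), Ccn2, Piezo1 and Amotl2 were higher of 15 against Pthlh-negative cells. Against all other kept cells only Ccn3 of 16 was higher, and Trpv4 (9.89 against 100 CPM) and Ptgs2 (8.48 against 26.7) were lower. The stress list holds immediate early and heat shock genes, which digestion can also raise. Against all other kept cells 7 of 21 were higher and none lower (median log2 ratio 0.57). Against Pthlh-negative cells 3 of 21 were higher (median 0.38), Atf3 (262 against 47.5 CPM), Hsph1 (43.8 against 11.8) and Fosl1 (2.37-fold). The part of digestion was not tested. Of 9 MHC class I and interferon genes, Ifitm3, Ifitm1 and H2-K1 were lower, and B2m stood at 106 against 104 CPM. The H2 class I genes share sequence, so their counts are uncertain.

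The same limits were then applied to the other 2 libraries. They chose 332 of 4562 kept cells at E16.5 (7.28%, 6.54 to 8.07) and 169 of 8028 at 13w (2.11%, 1.80 to 2.44). With all cells thinned to 5000 UMIs the shares were 5.0% (4.36 to 5.70) at E16.5, 2.60% (2.12 to 3.16) at P0 and 1.21% (0.970 to 1.5) at 13w. The share was highest at E16.5 and lowest at 13w in both. The intervals count cells and carry no error between libraries. Among Col9a1-low cells with none of the excluded genes the shares were 21.2%, 10.0% and 3.19% without thinning. Digestion and the live sort can set such shares, and each rests on 1 library.

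Within each library, the Pthlh-positive cells were compared with the Pthlh-negative cells of that library, so that the contrasts share no cells. Of 8526 measured genes at E16.5, 546 were higher (6.40%) and 267 lower (3.13%), and of 8127 at 13w 547 were higher (6.73%) and 325 lower (4.00%). Among the 7548 genes measured in both, 455 were higher at P0 and 353 at E16.5, and 243 were higher in both, which is 53.4% of the former and 68.8% of the latter, against 4.68% of these genes called higher at E16.5. Between P0 and 13w, 158 genes were shared, or 37.5% of 421 and 43.6% of 362, against 4.97% called at 13w. Of the genes higher at P0, 4 were lower at E16.5 and 17 at 13w. For genes lower at P0 the shares also lower were 38.6% at E16.5 (118 of 306) and 20.0% at 13w (59 of 295), against 2.68% and 3.21%. Of those genes, 4 were higher at E16.5 and 28 at 13w.

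Single genes, picked after their values were seen, give examples of what was and was not shared. Thbs4 was above Pthlh-negative cells in each library: 207 against 50.1 CPM at E16.5, 446 against 11.9 at P0 and 658 against 54.1 at 13w. Col14a1 (616 against 167 CPM at E16.5, 91.2 against 8.65 at 13w), Palmd (107 against 22.4, 27.7 against 3.36), Cd55 (87.5 against 23.2, 74.0 against 9.59) and Fst (367 against 35, 12.7 against 1.03) were likewise above in all 3. Pth1r was below in all 3, at 43.5 against 159 CPM at E16.5 and 157 against 491 at 13w. Procr was not measured at E16.5, at 0.847 against 1.66 CPM, and stood at 44.9 against 1.78 at 13w. Krtdap was under 10 CPM in both groups at E16.5 (2.54 against 0.118) and at 13w (5.23 against 0.225). Among the named genes lower at P0, Aldh1a3 and Ifitm3 were called higher at 13w, Aldh1a3 at 349 against 129 CPM and Ifitm3 at 428 against 147. Hhip, 8.93-fold above at P0, was 1.24-fold above at 13w.

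**Figure D5:**
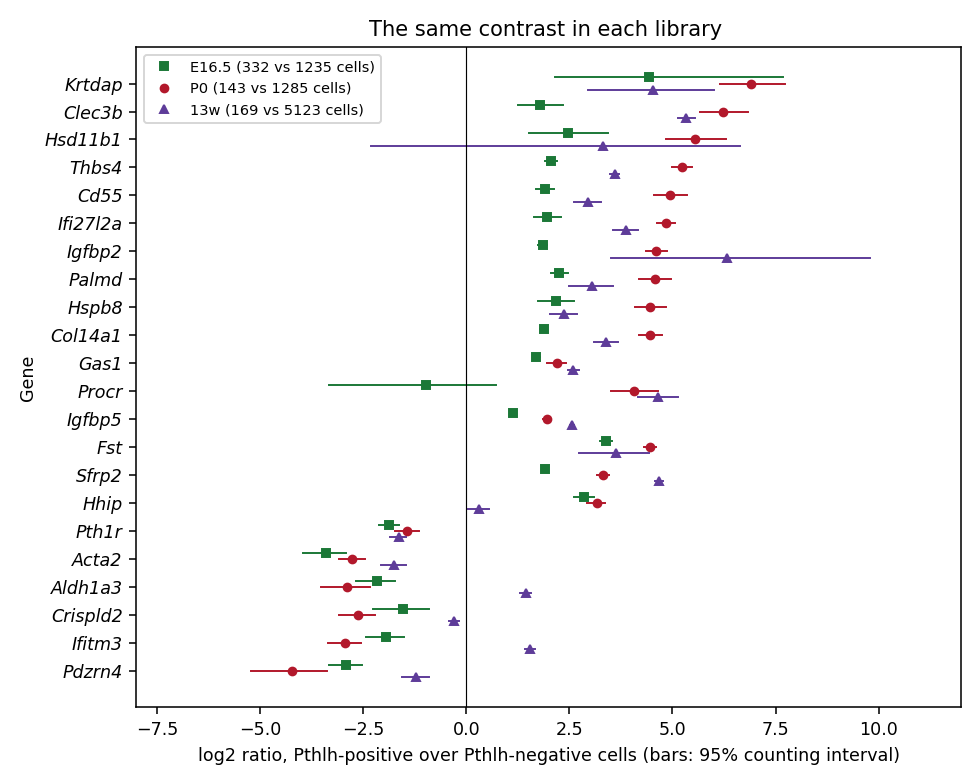
Log2 ratio of Pthlh-positive over Pthlh-negative cells within each library (squares E16.5, circles P0, triangles 13w) for named genes; bars are 95% counting intervals. Thbs4, Gas1, Fst and Sfrp2 are right of 0 and Pth1r and Acta2 left of 0 in all 3 libraries, the Procr interval spans 0 at E16.5, where it was under 10 CPM, and Aldh1a3 and Ifitm3 change side at 13w.

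Set directly beside the E16.5 cells chosen by the same limits, the P0 Pthlh-positive cells were higher in 649 of 8689 measured genes (7.47%) and lower in 1304 (15.0%), with a median log2 ratio of -0.21. This split depends on scaling and was 853 and 961 with TMM factors and 889 and 930 with median-of-ratios factors. The largest excesses at P0 were in Mt2, a metallothionein (161 against 1.41 CPM), Anxa8, an annexin (239 against 3.39), Procr (50.9 against 0.847), Krtdap (126 against 2.54) and the nuclear RNA Neat1 (518 against 12.7). Procr rested on 3 UMIs at E16.5 (log2 ratio 5.91, interval 4.30 to 8.22). Of the other markers, Gas1 was lower at P0 (150 against 481 CPM, log2 ratio -1.68), and Igfbp5 stood at 1094 against 680 CPM. Mt2 and Neat1 stood at 246 and 356 CPM in the Pthlh-negative cells of P0. Lower at P0 were Nefl, a neurofilament gene with 1 UMI at P0 (log2 ratio -6.27, interval -11.58 to -3.77), Otor (3 UMIs, -6.14, -8.42 to -4.58), Kcne1l (2.83 against 60.1 CPM), Ly6h (11.3 against 181) and the retinoid binding protein gene Crabp1 (13.4 against 178). DNA replication genes were lower in 6 of 15 measured and jaw patterning factors in 7 of 18. Of the 21 stress genes 10 were higher, and of 16 cartilage matrix genes 8.

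Beside the adult cells, P0 Pthlh-positive cells were higher in 966 of 8489 measured genes (11.4%) and lower in 1185 (14.0%), with a median of 0.01, and in 1521 and 1119 without mitochondrial and ribosomal protein genes in the totals. The largest excesses at P0 were in Dlk1 and 4 other genes. Dlk1, an imprinted gene, had 903 CPM against 0 UMIs (at least 402-fold higher), the imprinted RNA H19 2778 against 16.4 CPM, Fbn2 1242 against 3.74, Igfbp2 331 against 2.99, and Igf2bp3, a fetal RNA-binding protein gene, 65.7 CPM against 1 UMI (log2 ratio 6.46, interval 3.94 to 11.78). Imprinted growth genes were higher in 11 of 12 (median 3.42), with Dcn lower. Mmp3 and Mmp13, matrix metalloproteinases, were among the genes furthest below. Mmp3 had 1 UMI at P0 against 280 CPM (log2 ratio -8.63, interval -13.94 to -6.15), and Mmp13 2 UMIs against 360 CPM (-7.99, -11.04 to -6.13). Cilp had 2 UMIs against 531 CPM (-8.55, -11.60 to -6.70), the deiodinase gene Dio2 1 UMI against 168 CPM (-7.90, -13.21 to -5.40), and Slurp1 0 UMIs against 375 CPM, from 9.47% of the adult cells (at least 177-fold lower). Proteases and inhibitors were lower in 13 of 23, small leucine-rich proteoglycans in 9 of 12, and joint surface genes in 8 of 18, among them Prg4 at 32.5 against 831 CPM. Of the 4 proposed markers, Procr stood at 50.9 against 44.9 CPM, Gas1 at 150 against 401 and Igfbp5 at 1094 against 2893.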

How the data were processed

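The authors deposited raw UMI counts per gene and barcode for 3 libraries. Per the file headers the software was Cell Ranger 6.1.2, with build GRCm39 per the submitters' processing notes; counting by strand and the annotation release are not given in the sources used here, and no coordinates are given. Kept cells had a median of 17401, 17954 and 11010 UMIs at E16.5, P0 and 13w (total 100546288, 94002214 and 113130140). Of the barcodes, 15, 13 and 10 were shared between E16.5 and P0, E16.5 and 13w, and P0 and 13w, none by a chosen cell. Scrublet's automatic threshold (scanpy 1.11.5) marked at most 0.110% of the cells of any library, too few for a working call. Doublets stayed in, and removing the highest scores at the loading share took 134 P0 cells, 1 of them chosen.

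Counts were summed per group, divided by the total, and compared as ratios. A count of 0 was set to 3 counts per group and gives a bound. Intervals are 95% (for CPM exact Poisson, for shares Clopper-Pearson, for ratios binomial given the summed count). The ratio script was tested on simulated data. Clusters used 2000 variable genes, 30 principal components and 20 neighbours (leidenalg 0.10.2). Repeated symbols (38) stand for the first identifier. Named genes are the 10 (stages: 5) largest ratios in each direction with at least 50 CPM in the higher group, leaving out mitochondrial, ribosomal protein, haemoglobin, sex-linked, immunoglobulin and predicted genes, up to 4 genes per list, and the markers; genes named to spell out a count of 5 or fewer, or singled out otherwise, were chosen after their values were seen. The members, lists and rules were chosen with earlier results of these data known. Alternatives were other cell limits, thinning, equal weight per cell, TMM (edgeR) and median-of-ratios factors, other CPM minimums, and totals without mitochondrial and ribosomal genes.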

Additional observations from a re-analysis of the deposited data

How the results depend on the processing

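All 2873 recomputed ratios of the named genes kept their direction under the alternatives tried, but some fell under 2-fold: against all other kept cells 6 of 113 with each cell weighing the same and 5 with thinning, and at most 3 of 85 in any setting against Pthlh-negative cells. Other CPM minimums leave a ratio unchanged, and other factors or totals shift all ratios of a comparison alike. Those settings had little or no room to reverse a ratio past 2-fold. Over all genes, 1368 of the 1969 calls against all other cells were kept with thinning and 1384 with each cell weighing the same, where 663 genes were higher. TMM factors moved the median log2 ratio of all measured genes by -0.17 against all other kept cells, -0.12 against Pthlh-negative cells and 0.17 against E16.5, median-of-ratios factors by -0.16, -0.11 and 0.19, and totals without mitochondrial and ribosomal protein genes by 0.19 against 13w. Counts of genes past the limit of 2 depended on the CPM minimum. Without one, higher and lower genes numbered 7143 and 1779 against all other cells, 3094 and 1074 against Pthlh-negative cells, 1076 and 2457 against E16.5 and 1589 and 2031 against 13w, where genes of few UMIs enter. With 50 CPM they numbered 344 and 421, 212 and 116, 270 and 302, and 290 and 410. Lower genes against Pthlh-negative cells numbered 581 with at least 2 Pthlh UMIs required and 627 without mitochondrial and ribosomal protein genes, which also gave 1521 higher genes against 13w. Requiring 2 Pthlh UMIs gave 3.53%, 2.05% and 0.673% of kept cells at E16.5, P0 and 13w, thinning gave 5.0%, 2.60% and 1.21%, a Col9a1 limit of 1 per 10000 gave 2.93% at P0, and a mitochondrial limit of 5% gave 1.70% at 13w. Keeping only the Pthlh-positive cells of cluster 9, an alternative chosen after seeing the data, reversed no named gene. No paired analysis was possible because each stage has 1 library. Depth limits the calls of genes with few UMIs among the 143 cells, which had 1415636 UMIs in all.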

Other observations

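The 19 Pthlh-positive P0 cells beyond the Col9a1 limit were deeper than the 143, with a median of 34671 UMIs. Their median Col9a1 level was 17.2 UMIs per 10000 and the highest 44.4, and 9 of them held a UMI of a gene that marks division, endothelium or leukocytes. Abi3bp stood at 66.3 CPM in them against 283 in the Pthlh-positive Col9a1-low cells.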
